A study of Mus musculus with 4 samples.

Results

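Genes known from the surface layer of articular cartilage were followed in 4 RNA-seq libraries of mouse knee cartilage. The genes were Prg4, Cilp, Cilp2, Clu, Cytl1, Erg, Creb5, Tppp3 and Abi3bp, taken as the rows of the deposited gene table with these symbols, which gave 9 of 24532 genes. They were chosen by their FPKM levels and by the injury and age ratios of these same libraries, Cytl1 as the most abundant gene of adult sham cartilage, so all values below describe the libraries and carry no test. The mice were wild-type C57BL/6. Young mice were 3 weeks old. Adult mice are labelled as 12 weeks old in the sample title and 14 weeks in the age field, and the methods of the study give 10 weeks. Cartilage was taken after sham surgery or at day 3 after injury. The study describes a full-thickness cartilage injury (FTCI) of the patellar groove, whereas the sample titles name DMM surgery, a destabilization of the medial meniscus. The adult sham sample carries the range of days 3 to 14 in its label. RNA of 10 injured or 5 uninjured mice was pooled, so each of the 4 groups was 1 library and no difference between them has a replicate check or a standard deviation. The comparisons ask how injury and age change this cartilage.

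The superficial zone is the thin layer of flattened chondrocytes that faces the joint cavity. Its cells secrete lubricin, the product of Prg4, which coats the surface and lowers friction, and they differ from the rounded cells below, which deposit most of the type II collagen and aggrecan. Erg and Creb5 encode transcription factors of developing and mature articular cartilage, Cytl1, Clu, Cilp, Cilp2 and Abi3bp encode secreted or matrix proteins, and Tppp3 encodes a tubulin-binding protein of joint lining and tendon sheath cells. The libraries were made from dissected cartilage and no separation of layers is described, so that the depth of the cells in the tissue cannot be read from them. In bulk RNA, fewer cells of a type and less RNA per cell cannot be told apart.

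Values are FPKM, fragments per kilobase of transcript scaled to the mapped fragments of the library, which allow levels to be compared between genes per length. Where 2 values are given for a pair of libraries, the sham library comes before the injured one. Folds given for single genes are ratios of FPKM with nothing added. Log2 ratios have 1 FPKM added to both values unless stated otherwise, so the 2 measures differ slightly, most at low levels. The FPKM of all genes summed to between 469939 and 533468 per library, and the sequencing depth is unknown, since the most frequent low step of FPKM was shared by only 18 to 74 of 17546 genes with a single transcript. Of 17 chondrocyte marker genes, 17 reached 1 FPKM in both young libraries and 16 in both adult libraries, while Epyc was listed at 0 in adult sham cartilage. A gene was counted as higher or lower when the ratio of FPKM + 1 was at least 2-fold, which is a log2 ratio of 1 or more, and 18181 genes above 0 in at least 1 library formed the background. The general shift, as the median log2 ratio of the 10891 genes that reached 1 FPKM in every library, was -0.04 with injury at the young age and 0.23 at the adult age. It was -0.30 for adult against young shams and -0.07 for adult against young injured cartilage.

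The 9 genes together took 0.884% and 0.371% of the summed FPKM in the young pair and 7.13% and 2.27% in the adult pair. Cytl1 accounted for most of the adult share. Without it, the other 8 genes took 0.752% and 0.304% in the young pair and 1.85% and 1.09% in the adult pair. The summed share was therefore lowest in young injured and highest in adult sham cartilage with and without Cytl1. Levels spanned a wide range, from 3.52 FPKM for Creb5 in young injured cartilage to 26541 FPKM for Cytl1 in adult sham cartilage.

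**Figure D1:**
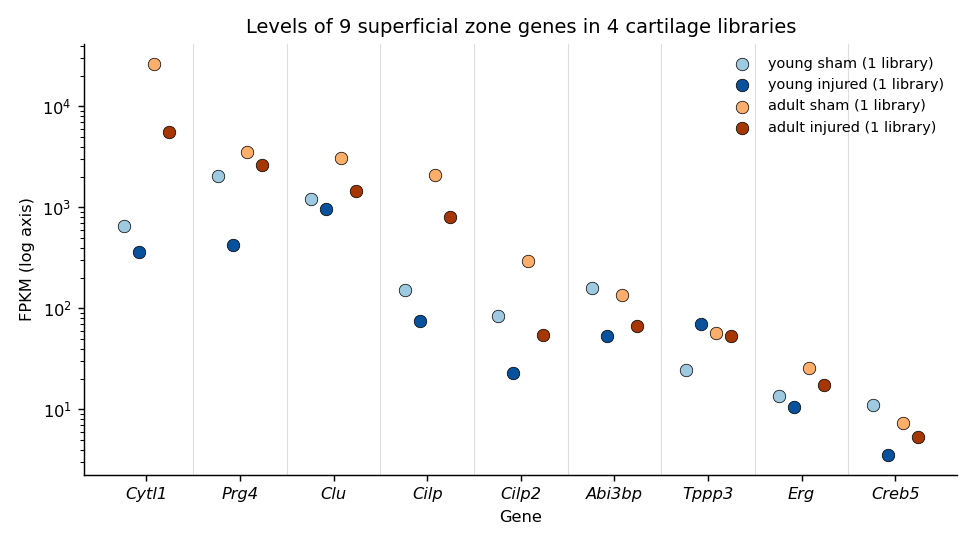
Levels of the 9 genes as FPKM on a log axis, with 1 point for each of the 4 libraries and genes ordered by their mean. Young injured cartilage has the lowest point for 8 of the 9 genes, and Tppp3, at 70.0 FPKM there, is the exception.

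After injury in young cartilage, 5 of the 9 genes fell at least 2-fold, namely Prg4, Abi3bp, Cilp2, Creb5 and Cilp, and Tppp3 rose. Among all genes, 1.27% were at least 2-fold lower and 4.57% at least 2-fold higher in the same comparison. The median log2 ratio of the 9 genes was -1.01, against 0.00 over all genes of the background. Cilp stood at the threshold, with a log2 ratio of -1.01. After injury in adult cartilage, 4 genes fell, namely Cilp2, Cytl1, Cilp and Clu, where 1.46% of all genes were lower and 6.9% higher, and none of the 9 genes rose. The median was -0.98, against 0.14 over all genes, and Abi3bp lay just short of the threshold at -0.98. All 9 log2 ratios were below 0 in adult cartilage and 8 of 9 in young cartilage. Cilp and Cilp2 were the members that fell at both ages. The share of genes called in the background depended on the scaling, since for adult injury the calls split into 802 up and 527 down with median-of-ratios scaling and into 1255 up and 266 down on the deposited scale.

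**Figure D2:**
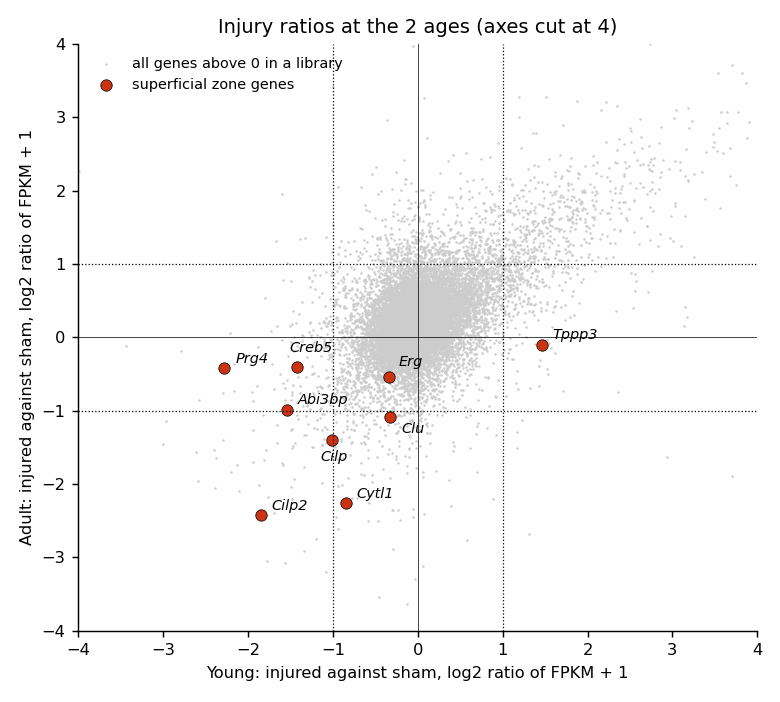
Log2 ratios of FPKM + 1 for injured against sham cartilage in young mice (x axis) and adult mice (y axis), with 1 library per group, all background genes in grey and the 9 genes in red. Dotted lines mark 2-fold. Prg4 lies farthest to the left at -2.28 and Cilp2 lowest at -2.42, whereas Tppp3 lies to the right at 1.46.

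With age, most of the 9 genes were higher. In adult sham against young sham cartilage, 5 of 9 genes were at least 2-fold higher, namely Cytl1, Cilp, Cilp2, Clu and Tppp3, and none was 2-fold lower, while 2.66% of all genes were higher and 10.6% lower. Their median log2 ratio was 1.19, against -0.15 over all genes. In adult injured against young injured cartilage, 4 genes were higher, namely Cytl1, Cilp, Prg4 and Cilp2, and none lower, with 1.8% and 3.09% of all genes in these directions. The median was 0.67, against -0.04. Each sham library is part of both an age and an injury comparison, so these ratios are not independent of each other. After median-of-ratios scaling the background of the sham comparison changed to 1065 genes higher and 932 lower, from 484 and 1934, and 7 of the 9 genes were then 2-fold higher in adult sham cartilage.

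Prg4 (Entrez Gene 96875, chr1:150449412-150466221 on GRCm38.p6, the assembly of mm10) encodes lubricin. It was at 2049 and 421 FPKM in the young pair and at 3565 and 2658 FPKM in the adult pair. The young injured library thus stood far below the other 3, which lay between 2049 and 3565 FPKM. Injury lowered Prg4 by 4.86-fold in young cartilage, a log2 ratio of -2.28, which placed it 187th among all genes in the injured library after 22nd in the sham library. In adult cartilage the level after injury was 1.34-fold lower, a log2 ratio of -0.42, and Prg4 ranked 15th and 19th. On the deposited scale the log2 ratio after injury was higher in adult than in young mice by 1.86, the largest positive difference between the ages among the 9 genes. The size of this difference depended on the scaling. Across the 6 scalings the log2 ratio after injury lay between -2.56 and -2.00 in young and between -0.997 and -0.28 in adult cartilage. Injured cartilage of adult mice held 6.31-fold more Prg4 than that of young mice, whereas the sham libraries differed by 1.74-fold. The synovial lining also makes lubricin. Between the same injured libraries 5 of 8 markers of the lining were at least 2-fold higher in adult mice, where 1.8% of all genes were higher. The list covers the lining as a whole and does not single out the cells that make lubricin. Their part in this ratio was not tested. Ratios within a library do not depend on scaling between libraries. The ratio of Prg4 to Acan, which encodes aggrecan, went from 5.06 to 0.865 after injury in young and from 16.6 to 4.76 in adult cartilage. Acan itself rose from 214 to 559 FPKM after injury in adult cartilage and was at 405 and 487 FPKM in young sham and injured cartilage. Relative to Col2a1, the type II collagen gene, Prg4 went from 0.219 to 0.0533 in young and from 1.12 to 0.709 in adult cartilage. The annotated span of Prg4 overlaps that of Tpr, which was between 11.1 and 17.7 FPKM in the 4 libraries.

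Creb5 (231991, chr6:53287226-53700364), a leucine zipper transcription factor that is needed for Prg4 expression in articular chondrocytes, was the least abundant of the 9 genes. Its level was 11.2 and 3.52 FPKM in the young pair and 7.31 and 5.29 FPKM in the adult pair. The lowest value was again that of young injured cartilage. The FPKM of Creb5 fell by 3.17-fold in young cartilage. Its log2 ratio of FPKM + 1 was -1.43 and moved to -0.92 with 5 FPKM in place of 1 FPKM added. In adult cartilage the log2 ratio was -0.40. With scaling to chondrocyte genes the ages nearly met, at -1.11 in young and -0.97 in adult cartilage. Unlike most of the genes, Creb5 was not higher in adult sham than in young sham cartilage, with a log2 ratio of -0.55 that turned to 1.43 when the libraries were scaled to chondrocyte genes. The span of Creb5 overlaps 4 noncoding genes in the RefSeq annotation, LOC115490478, Gm38815, Gm38814 and Gm33392.

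Erg (13876, chr16:95359169-95586600) encodes an ETS transcription factor of the joint-forming cartilage and is also a defining factor of endothelial cells. It was at 13.5 and 10.5 FPKM in the young pair and at 25.7 and 17.3 FPKM in the adult pair. Both adult libraries lay above both young libraries. On the deposited scale no comparison of Erg reached 2-fold, with log2 ratios of -0.34 and -0.54 after injury in young and adult mice and of 0.88 between the shams, although the last passed the threshold after median-of-ratios scaling and after quantile normalization, where it was 1.14, and every gene of the 9 did so with scaling to chondrocyte genes. The 10 endothelial marker genes moved the other way. They summed to 23.7 and 109.8 FPKM in the young pair and 26.9 and 93.2 FPKM in the adult pair, with none at 0. Of the 10, 9 were higher after injury at each age, where 4.57% of all genes were higher in young and 6.9% in adult cartilage, and the adult count was 7 after median-of-ratios scaling and 5 after quantile normalization. Their part in the level of Erg was not tested.

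Cytl1 (231162, chr5:37735519-37739820) encodes a small secreted protein that is abundant in cartilage. Its level was 648 and 359.7 FPKM in the young pair and 26541 and 5550.2 FPKM in the adult pair. All adult values were above all young ones, and the adult sham library exceeded every other library by far. Among all genes Cytl1 ranked 125th and 217th in the young pair and 1st and 6th in the adult pair. The adult sham library held 40.95-fold more Cytl1 than the young sham library, and the injured libraries differed by 15.4-fold, log2 ratios of 5.35 and 3.94. After injury Cytl1 fell by 4.78-fold in adult cartilage, a log2 ratio of -2.26, and was 1.80-fold lower in young cartilage, a log2 ratio of -0.85. The adult injury ratio spread more between scalings than that of the other 8 genes and was -1.34 after quantile normalization, which replaces the highest value of each library by a common one. Cytl1 alone was 5.28% of the summed FPKM of adult sham cartilage. With the libraries brought to an equal sum over all genes other than the 9, its log2 ratio was -2.23 after injury in adult cartilage and 5.42 between the shams. The ratio of Cytl1 to Acan was 1.60 and 0.738 in the young pair and 124 and 9.93 in the adult pair.

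Clu (12759, chr14:65968483-65981548) encodes clusterin, an extracellular chaperone. It was at 1208 and 965 FPKM in the young pair and at 3116 and 1468 FPKM in the adult pair. Only the adult sham library stood clearly above the other 3. Clu fell by 2.12-fold after injury in adult cartilage, a log2 ratio of -1.09 that was -0.99 on the TPM scale and -0.58 after quantile normalization, so that the call was lost under both. In young cartilage the log2 ratio was -0.32. Between the shams Clu was 2.58-fold higher in adult cartilage. In young injured cartilage Clu was more abundant than Prg4, with a Prg4 to Clu ratio of 0.437, whereas this ratio was 1.70, 1.14 and 1.81 in young sham, adult sham and adult injured cartilage.

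Cilp (214425, chr9:65265180-65280614) and Cilp2 (68709, chr8:69880366-69887392) encode related glycoproteins of the cartilage matrix, and the Cilp product binds transforming growth factor beta. Cilp was at 152 and 74.9 FPKM in the young pair and at 2093 and 795 FPKM in the adult pair. Cilp2 was at 84.8 and 22.7 FPKM (young) and 296 and 54.4 FPKM (adult). Both were highest in adult sham and lowest in young injured cartilage, but the adult injured level of Cilp exceeded both young levels whereas that of Cilp2 lay between them. Cilp was 13.7-fold higher in adult sham than in young sham cartilage and Cilp2 3.49-fold. After injury Cilp fell by 2.03-fold in young and 2.63-fold in adult cartilage, and Cilp2 by 3.73-fold and 5.44-fold. The young call of Cilp did not hold when the libraries were scaled to chondrocyte genes, with a log2 ratio of -0.73, or with 5 FPKM added, at -0.98. Within each library, Cilp was the more abundant gene of the pair, with a Cilp to Cilp2 ratio of 1.80 and 3.30 in the young pair and 7.08 and 14.6 in the adult pair. The ratio was thus higher after injury at both ages and higher in adult than in young cartilage. Cilp and Cilp2 each overlap a noncoding gene in the RefSeq annotation, Gm36538 and Gm33746, and the sources used here do not state whether strand was used in counting.

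Abi3bp (320712, chr16:56477801-56690135) encodes a secreted matrix protein. Its level was 158 and 53.3 FPKM in the young pair and 135 and 67.6 FPKM in the adult pair. The sham libraries lay close together and above both injured libraries. Abi3bp fell by 2.95-fold in young cartilage, and in adult cartilage it was 1.99-fold lower, a log2 ratio of -0.98 that passed the threshold after median-of-ratios scaling, at -1.32, and after quantile normalization, at -1.11. The sham libraries differed by a log2 ratio of -0.22, which changed sign to 0.21 after median-of-ratios scaling.

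Tppp3 (67971, chr8:105467492-105471422) moved differently from the other 8 genes. It was at 24.7 and 70.0 FPKM in the young pair and at 57.7 and 53.7 FPKM in the adult pair. Young sham cartilage had the low value, and the other 3 libraries lay close together. The FPKM of Tppp3 rose 2.83-fold in young cartilage. Its log2 ratio of FPKM + 1 was 1.46 and stayed between 1.34 and 1.71 under the 5 other scalings. In adult cartilage the log2 ratio was -0.10, between -0.67 and -0.01 under the same scalings. Adult sham cartilage held 2.33-fold more Tppp3 than young sham cartilage. The related genes Tppp and Tppp2 did not exceed 1 FPKM in any library. Of the 8 tendon and ligament genes examined, 1 rose and 3 fell in young cartilage, with a median log2 ratio of -0.06, where 4.57% of all genes were higher and 1.27% lower. With scaling to chondrocyte genes 1 in place of 3 fell. The gene that rose was Scx, a transcription factor of tendon progenitors, which went from 2.97 to 9.75 FPKM and was at 5.18 and 3.98 FPKM in adult sham and injured cartilage. The summed level of that list was 1670 and 802 FPKM in the young pair and 1795 and 562 FPKM in the adult pair, largely that of Fmod and, in adult sham cartilage, also of Thbs4, both of which cartilage also expresses, while Ptx4 was at 0 in 3 libraries. Its part in the level of Tppp3 was not tested.

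**Figure D3:**
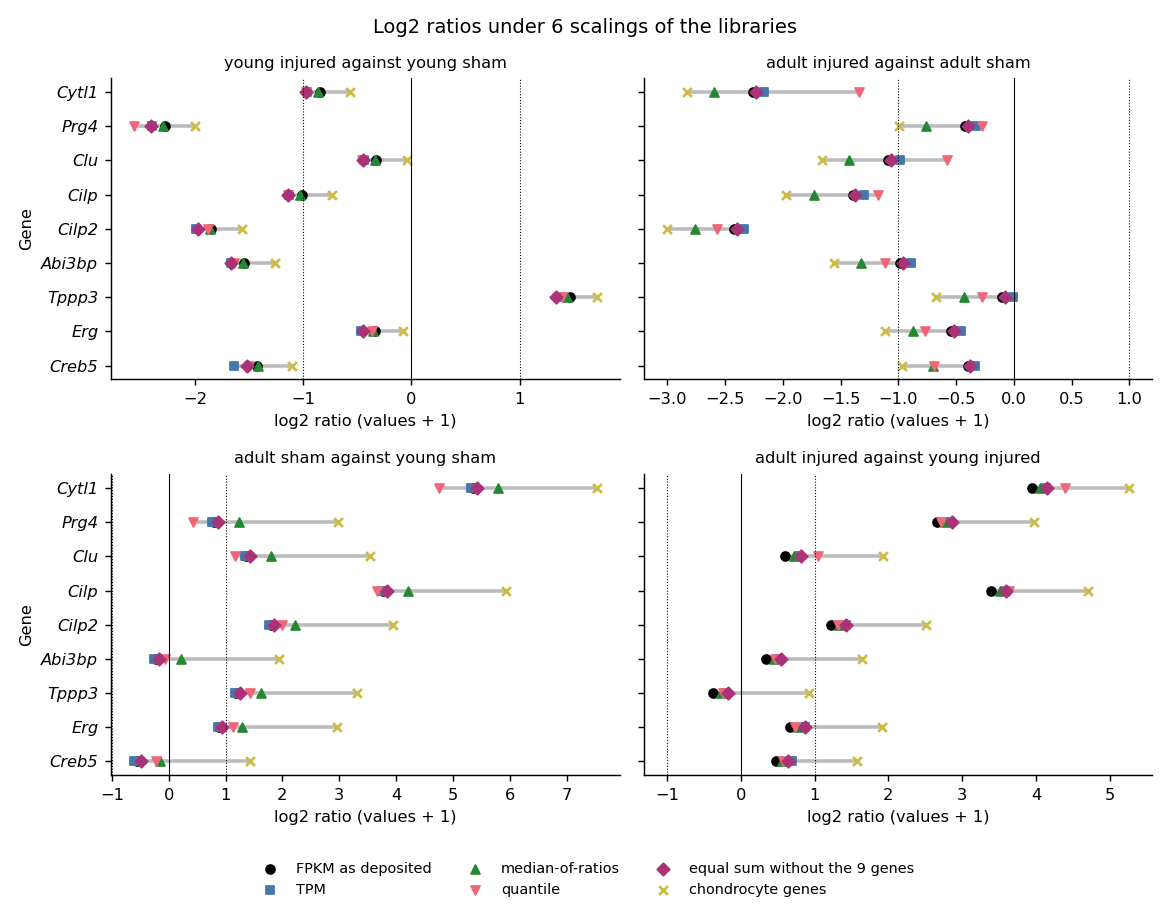
Log2 ratios of the 9 genes in the 4 comparisons, with 1 marker for each of 6 scalings of the libraries, grey bars from the lowest to the highest, and dotted lines at 2-fold. The injury ratios keep their sign under all 6 scalings, and scaling to chondrocyte genes moves the age ratios most, for Cytl1 between the shams to 7.53.

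The chondrocyte marker genes, which were used for one of these scalings, differed with age themselves. In adult sham cartilage 13 of 17 were at least 2-fold lower than in young sham cartilage and 1 was higher, with a median log2 ratio of -1.59, where 10.6% of all genes were lower and 2.66% higher. After median-of-ratios scaling 10 of the 17 were lower. Col2a1 was at 9349 FPKM in young sham and 3173 FPKM in adult sham cartilage. The ratio of Cytl1 to Col2a1 was 0.0693 in young sham and 8.37 in adult sham cartilage. Relative to 16 chondrocyte genes above 0 in all libraries, each of the 9 superficial zone genes was at least 2-fold higher in adult sham than in young sham cartilage. This scaling shifted the median of all genes to 1.11 and put 9762 of 18181 genes at least 2-fold higher, so that a 2-fold difference was common under it.

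Other genes of the joint surface were examined as a list of 16. The list was assembled with earlier results of these data known, so its counts are a description only. After injury in young cartilage 8 of them fell and 3 rose, with a median log2 ratio of -0.93, and in adult cartilage 5 fell and 2 rose, with a median of -0.45. Over all genes, 1.27% were lower and 4.57% higher in young cartilage and 1.46% and 6.9% in adult cartilage, and these shares also stand behind the injury counts of the lists that follow. Across the 6 scalings 7 or 8 of the 16 genes were lower in young cartilage and 4 to 8 in adult cartilage. The number of higher genes was 3 in young cartilage under each scaling and 1 to 4 in adult cartilage. Vit, the vitrin gene, was at 357 and 92.4 FPKM in the young pair and at 372 and 114 FPKM in the adult pair. Wnt9a, a Wnt ligand of the joint-forming interzone, was at 5.03 and 0.374 FPKM (young) and 4.85 and 0.749 FPKM (adult). Vit and Wnt9a thus fell at both ages, with log2 ratios of -1.94 and -1.69 for Vit and of -2.13 and -1.74 for Wnt9a. Sema3e, a semaphorin, fell from 16.5 to 2.88 FPKM in young cartilage and was at 6.93 and 5.18 FPKM in adult sham and injured cartilage. Its log2 ratios were -2.17 and -0.36, a pattern that, like those of Prg4 and Creb5, had the larger change in young mice. Thbs4, which encodes thrombospondin 4 and is also expressed in tendon, was at 55.9 and 21.5 FPKM in the young pair and at 696 and 91.8 FPKM in the adult pair. Like Cytl1 and Cilp, it was far higher in adult sham cartilage and fell there after injury, with log2 ratios of 3.61 and -2.91. Cd44, the hyaluronan receptor that also binds lubricin, rose in both pairs, from 5.51 to 34.0 FPKM (young) and from 5.43 to 29.0 FPKM (adult). Macrophages also express Cd44, and the 10 macrophage markers summed to 192 and 1905 FPKM in the young pair and 325 and 1651 FPKM in the adult pair, with none at 0 and all 10 higher after injury at each age, or 9 of 10 in adult cartilage with scaling to chondrocyte genes. Their part in the rise of Cd44 was not tested.

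**Figure D4:**
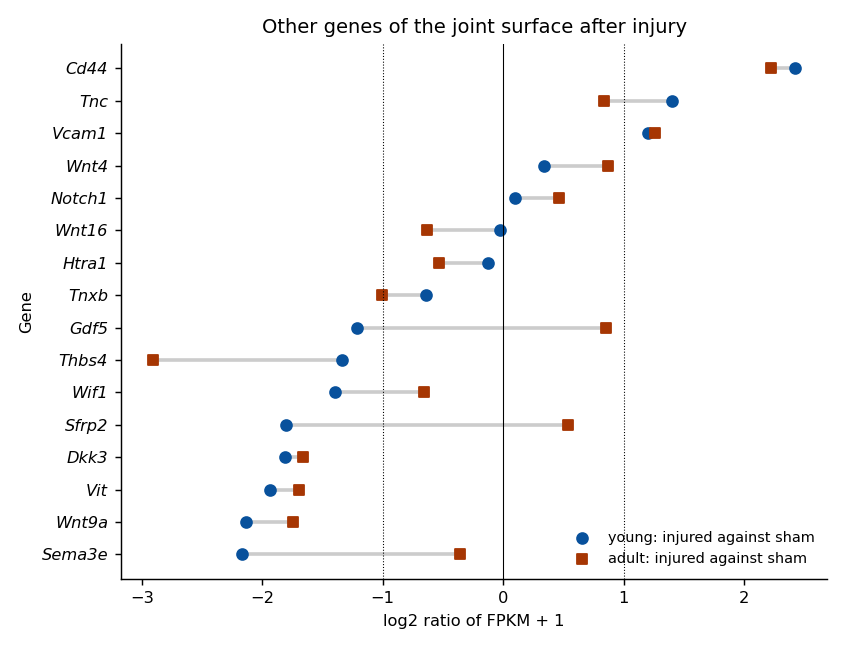
Log2 ratios of FPKM + 1 after injury for 16 other genes of the joint surface in young (circles) and adult mice (squares), with 1 library per group and dotted lines at 2-fold. Vit, Wnt9a, Dkk3 and Thbs4 lie beyond the lower line at both ages, and Cd44 and Vcam1 beyond the upper one.

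Between the sham libraries, 4 of the 16 genes were higher and 3 lower in adult cartilage, with a median log2 ratio of 0.16, where 2.66% of all genes were higher and 10.6% lower. Gdf5, a growth factor of the forming joint, was at 15.2 FPKM in young sham and 3.41 FPKM in adult sham cartilage, and Sfrp2, a secreted Wnt modulator, at 7.33 and 1.40 FPKM. With scaling to chondrocyte genes neither was 2-fold lower, and the log2 ratio of Gdf5 turned to 0.02. Htra1, a secreted serine protease, went the other way, from 92.5 to 284 FPKM. Between the injured libraries 3 of 16 genes were higher in adult mice and none lower, against 1.8% and 3.09% of all genes, among them Wif1, a Wnt inhibitor of the cartilage surface, which measured 248 FPKM in the young and 649 FPKM in the adult library.

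Signals and factors known to regulate lubricin were taken as a list of 18 genes. Of these, 3 fell and none rose after injury in young cartilage, and 1 fell and 1 rose in adult cartilage, with median log2 ratios of -0.28 and 0.25. With scaling to chondrocyte genes 1 gene in place of 3 was lower in young cartilage, as Pthlh and Nfatc2 lost their calls, and the adult median turned to -0.29. The adult median was also below 0, at -0.06, after median-of-ratios scaling. Tgfa, a ligand of the epidermal growth factor receptor, fell from 10.2 to 3.13 FPKM in young cartilage and was at 3.36 and 4.02 FPKM in adult sham and injured cartilage. Pthlh, the parathyroid hormone-related protein gene, fell from 8.69 to 3.49 FPKM in young cartilage and was at 3.92 and 3.46 FPKM in the adult libraries. For both genes the young sham library was the only one that stood apart. Nfatc2, a calcium-dependent transcription factor of articular cartilage, fell at both ages, from 3.97 to 1.11 FPKM and from 5.21 to 1.20 FPKM. Tgfb2 rose in adult cartilage from 1.61 to 5.15 FPKM, whereas young cartilage was at 4.85 and 4.66 FPKM, and its adult log2 ratio of 1.24 was 0.87 in the scaling that lowered it most. The receptor gene Tgfbr2 was between 20.8 and 47.8 FPKM in the 4 libraries and its log2 ratio between the shams was 0.89 on the deposited scale, which passed 2-fold under 3 of 6 scalings. Between the shams 3 genes of the list were lower and none higher, where 10.6% of all genes were lower and 2.66% higher, and the counts were 1 lower and 4 higher after median-of-ratios scaling. Foxo3, Tgfa and Tgfb2 were lower in adult cartilage, with log2 ratios of -1.43, -1.36 and -1.17, all of which turned positive with scaling to chondrocyte genes, at 0.37, 0.50 and 0.45. Between the injured libraries Errfi1 and Bmp7 were higher in adult mice, with log2 ratios of 1.35 and 1.07. Errfi1 encodes a feedback inhibitor of the epidermal growth factor receptor.

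Lubricin acts at the surface together with hyaluronan and fibronectin and is cut by cathepsins, and 11 genes of this kind were examined. After injury 3 of them rose in young and 4 in adult cartilage, under each of the 6 scalings. None fell on the deposited scale, and 1 did in adult cartilage with scaling to chondrocyte genes. Fn1, the fibronectin gene, was at 226 and 1869 FPKM in the young pair and at 442 and 3803 FPKM in the adult pair. Ctss, a cathepsin gene that macrophages also express, was at 9.43 and 258 FPKM (young) and 14.1 and 194 FPKM (adult). Has1, a hyaluronan synthase gene, rose in adult cartilage from 3.83 to 17.7 FPKM and was at 1.95 and 4.39 FPKM in young cartilage. Fn1 and Ctss thus rose at both ages while Prg4 fell in young cartilage. The level of Fn1 was below that of Prg4 in both sham libraries and above it in both injured libraries.

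Relatives of Erg and Creb5 were also examined. Of 10 ETS genes above 0, 1 rose in young and 2 in adult cartilage. Etv4 was close to the lower threshold in young cartilage, at 2.64 and 0.826 FPKM and a log2 ratio of -0.99, and it was at least 2-fold lower under 3 of 6 scalings. Spi1, a factor of myeloid cells, rose in both pairs, from 4.86 to 20.6 FPKM (young) and from 5.97 to 30.4 FPKM (adult). Ets1 also rose in adult cartilage, from 8.49 to 19.7 FPKM, a call made under 3 of 6 scalings. Of 13 CREB and ATF genes, 1 rose at each age, a share near that of all genes. Atf3, a stress-induced member, went up from 3.50 to 8.68 FPKM in the young pair and was at 8.61 and 6.87 FPKM in the adult pair. Its young call was made under 5 of 6 scalings and lost with the equal sum over genes other than the 9. Creb3l1 rose in adult cartilage from 11.0 to 23.3 FPKM, also under 3 of 6 scalings. Between the shams 1 gene of this list was higher in adult cartilage and 2 were lower, against 2.66% and 10.6% of all genes. Atf3 was the higher one, with a log2 ratio of 1.09, and Atf4 and Creb3l2 were the lower ones, with log2 ratios of -1.05 and -1.14 that turned to 1.11 and 0.90 with scaling to chondrocyte genes.

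The patterns of the 9 genes over the 4 libraries were compared as log2 values of FPKM + 1 after subtraction of each gene's mean, using the root mean square of the difference. Among the pairs of members, Creb5 and Abi3bp were closest at 0.22, followed by Clu and Erg at 0.22, and Cytl1 and Cilp were at 0.62. The pair of Cytl1 and Creb5 was farthest apart at 2.44. Among 8054 other genes whose mean reached 5 FPKM, the nearest to Prg4 were Ephx1, an epoxide hydrolase gene, at 0.29, Cyp3a13 and 1700047M11Rik. Prg4 had no neighbour within 0.25. Cilp was nearest to Hhipl2 (0.18), Sost (0.22) and Chst5 (0.34). Sost, the sclerostin gene of osteocytes and calcified cartilage, was at 0.459 and 0.0915 FPKM in the young pair and at 26.0 and 8.67 FPKM in the adult pair, and it was also among the 3 nearest to Cytl1. The nearest to Cytl1 were Serpina1e (0.48) and Serpina1c, members of a family of similar genes whose single values are uncertain, so Cytl1 had no close neighbour. Clu was nearest to Sparc (0.04), the osteonectin gene, at 8634 and 6815 FPKM (young) and 22039 and 11027 FPKM (adult), followed by Pink1 and Ackr3. Erg was nearest to Osbpl5 (0.03), Cadm1 and Npdc1, and 353 genes lay within 0.25 of it. Creb5 was nearest to the clock gene Per3 (0.06), Prrt2 and Btbd3, and Abi3bp to Bmp4 (0.05), Fam167a and 4930523C07Rik. Tppp3 was nearest to Atf3 (0.14), Ccnd1 and Rab7b.

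Cilp2 was nearest to Myl2 (0.29), Padi2 (0.33) and Ckmt2 (0.35), and Myl2 and Ckmt2 are genes of striated muscle. The 10 skeletal muscle markers summed to 493 and 498 FPKM in the young pair and 1148 and 346 FPKM in the adult pair. Acta1, the most abundant of them, was at 189 and 182 FPKM (young) and 499.7 and 98.0 FPKM (adult). Of the 10 markers, 7 fell after injury in adult cartilage, and 7 to 10 across the 6 scalings, where 1.46% of all genes were lower. In young cartilage 1 of the markers fell and 1.27% of all genes were lower, while Cilp2 fell by 3.73-fold. Their part in the adult level of Cilp2 was not tested. Genes of the synovial lining, 8 in the list with Htra4 the most abundant, summed to 42.9 and 44.1 FPKM in the young pair and 155 and 112 FPKM in the adult pair. Htra4 alone was at 20.7 and 10.2 FPKM (young) and 118 and 45.0 FPKM (adult). Prg4, Cilp, Cytl1, Clu and Erg had the same order of the libraries. Of the 8 genes, 5 passed 2-fold upward in adult against young injured cartilage, and 5 or 6 across the 6 scalings, with a median log2 ratio of 1.14, where 1.8% of all genes were higher. Fibroblast markers, which also include matrix genes of cartilage and bone, summed to 2627 and 6510 FPKM (young) and 2531 and 8912 FPKM (adult), led by Dcn. Of these 10 markers 4 rose in young cartilage, and 6 rose and 1, Dpt, fell in adult cartilage. Hypertrophic chondrocyte markers summed to 1373 and 3989 FPKM (young) and 8213 and 12908 FPKM (adult), and osteoblast markers to 401 and 848 FPKM (young) and 990.0 and 1555 FPKM (adult). Erythroid markers summed to 9683 and 18450.0 FPKM (young) and 6957 and 3032 FPKM (adult). Sums were 1228 and 2502 FPKM (young) and 1622 and 1958 FPKM (adult) for neutrophils, and 55.9 and 61.9 FPKM (young) and 70.3 and 43.8 FPKM (adult) for adipocytes. The most abundant genes of these 5 lists were Spp1, Col1a1, Hba-a2, S100a9 and Fabp4. The part of these cells in the results was not tested.

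Promoters were read from RefSeq sequence for 5 of the 9 genes, Cytl1, Cilp, Cilp2, Creb5 and Erg, and not for Prg4, Clu, Tppp3 and Abi3bp. The 250 bases before the annotated start are shown for Cytl1, Cilp and Cilp2, the genes with the highest ratios between their highest and lowest library, and for a start of Creb5, whose window holds a motif. The start used for Creb5 lies inside the RefSeq span of the gene. They are written from 5′ to 3′ on the strand of the gene, on GRCm38.p6. Capitals mark a match to one of 4 motifs searched on both strands, TGACGTCA (the cAMP response element), TGANTCA (AP-1), ACCGGAAGT (ETS) and TATAAA.
Cytl1 promoter, chr5:37735269-37735518, plus strand: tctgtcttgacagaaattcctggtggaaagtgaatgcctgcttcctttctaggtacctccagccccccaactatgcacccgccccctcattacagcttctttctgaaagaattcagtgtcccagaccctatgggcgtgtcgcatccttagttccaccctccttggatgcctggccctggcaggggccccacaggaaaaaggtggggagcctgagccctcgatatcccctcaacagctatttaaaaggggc
Cilp promoter, chr9:65264930-65265179, plus strand: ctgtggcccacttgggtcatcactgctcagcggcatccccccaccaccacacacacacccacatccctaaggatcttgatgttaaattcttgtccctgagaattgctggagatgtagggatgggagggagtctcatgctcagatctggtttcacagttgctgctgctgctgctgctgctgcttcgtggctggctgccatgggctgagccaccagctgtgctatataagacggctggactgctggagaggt
Cilp2 promoter, chr8:69887393-69887642, minus strand: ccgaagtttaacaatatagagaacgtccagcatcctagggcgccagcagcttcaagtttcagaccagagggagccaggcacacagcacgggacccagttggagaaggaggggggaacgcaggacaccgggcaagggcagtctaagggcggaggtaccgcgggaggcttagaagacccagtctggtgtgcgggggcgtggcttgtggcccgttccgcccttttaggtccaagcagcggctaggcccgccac
Creb5 promoter, chr6:53287053-53287302, plus strand: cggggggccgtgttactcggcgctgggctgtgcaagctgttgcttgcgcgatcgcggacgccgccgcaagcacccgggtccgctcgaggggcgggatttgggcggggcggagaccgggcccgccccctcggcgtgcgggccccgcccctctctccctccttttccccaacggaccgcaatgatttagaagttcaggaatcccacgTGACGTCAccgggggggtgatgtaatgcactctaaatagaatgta
Windows of 250 bases before to 50 bases after the start were searched. Creb5 held a cAMP response element 45 bases before the start used for that window, a motif that occurred in 1.79% of 32851 such windows, and an AP-1 motif 45 bases before another start, which occurred in 7.81% of windows. Erg held TATAAA on the opposite strand 46 bases before one of 3 starts, against 13.6% of all windows. The Cytl1, Cilp and Cilp2 windows contained no exact match to the 4 motifs. Variants of TATAAA, such as the tatataag near the end of the Cilp sequence, were not searched. The ETS motif, found in 1.10% of all windows, occurred in none of the 8 windows of the 5 genes. The G and C content of the 250 bases was 54.8% for Cytl1, 56.0% for Cilp, 62.4% for Cilp2 and 66.4% for Creb5. These matches describe the letters of the windows only.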

How the data were processed

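RNA-seq had been done on poly-A selected RNA of pooled cartilage with a stranded kit and paired-end reads, 1 library for each of 4 groups assigned from the sample descriptions. The authors deposited FPKM values for 24532 genes on mm10. HISAT2 2.1.0 and StringTie 1.3.4d are among the tools in the submitters' processing notes, and the counting settings are not given in the sources used here. FPKM were not rescaled. Log2 ratios of FPKM + 1 were calculated for 4 comparisons without a test, and a change of 2-fold or more was called. Members and gene lists were chosen with earlier results of these data known. Named genes were the 9 members, up to 4 changed genes of each pathway list per comparison among those whose mean reached 1 FPKM, the most abundant gene of the marker lists used and the 3 nearest genes in pattern of each member. Dkk3, Vcam1, Tgfbr2, Scx, Ptx4, Etv4, Dpt, Acan, Epyc and Tpr were named after their values were seen. Alternatives were a pseudocount of 0.1 or 5 FPKM, TPM, median-of-ratios scaling, quantile normalization, an equal sum without the members, a filter of at least 1 FPKM, and thresholds of 1.5-fold and 3-fold. Scaling to chondrocyte genes was redefined after the data were seen, because Epyc at 0 left the planned mean undefined. Scripts were tested on simulated data. Sharing of 31-base words with other genes in GENCODE transcripts was at most 4.69% for the 9 genes (Tppp3). Coordinates and promoters are from RefSeq (GRCm38.p6). Python 3.11.15, numpy 2.4.6, pandas 2.3.3 and matplotlib 3.10.9 were used.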

Additional observations from a re-analysis of the deposited data

Results flagged for a closer look

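Tppp3 was singled out because its log2 ratio after injury was above 0 in young cartilage, at 1.46, and below 0 in adult cartilage, at -0.10. The difference between the ages was not tested, since each group was 1 library, and the adult value is a change of less than 2-fold. The levels were 24.7 and 70.0 FPKM in young sham and injured cartilage and 57.7 and 53.7 FPKM in adult sham and injured cartilage.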

How the results depend on the processing

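With 1 library per group no library could be left out. No paired analysis was possible because each group has a single library. Scaling to the chondrocyte genes, redefined after the data were seen, raised the median log2 ratio of the 9 genes to 3.31 between the shams and to 1.92 between the injured libraries, and the number of genes at least 2-fold higher in adult cartilage to 9 and 8. With a 3-fold threshold, 3 genes were higher in adult sham cartilage, none (0) rose after injury in young cartilage, 2 fell in young and 2 in adult cartilage. With 5 FPKM added, 3 genes fell in young cartilage. Under the other settings these counts stayed within 1.5 times and the medians within 0.58 of the reported values, and no ratio of the 9 genes that was at least 2-fold changed sign. Of the other genes named, Gdf5, Sema3e, Foxo3, Tgfa, Tgfb2, Atf4, Creb3l2, Col2a1 and Hba-a2 were 2-fold lower in adult sham cartilage and changed sign with scaling to chondrocyte genes, as did Col2a1 and Scx between the injured libraries. The low level of Creb5 also limits its ratios, as its young injury ratio moved from -1.43 to -0.92 with 5 FPKM added.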
